A study of Mus musculus with 20 samples.

Results

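Tpmt, BC089597, Colec12, Rcan2, Aatk, Ppp1r9a, Clstn3 and Anxa5 are 8 of the 25444 gene loci listed for mouse liver, and all 8 were among the 13704 genes with enough counts to be tested. They were picked because the female-to-male difference in their liver RNA was strongly unlike between 2 inbred strains, so that this unlikeness is what chose them and is described here without a test. RNA was measured in the left lateral lobe of the liver of 20 mice aged 20 weeks, with no treatment named: 5 females (F) and 5 males (M) of C57BL/6N (B6) and 5 females and 5 males of C3H/HeN (C3), each mouse giving 1 library. The sexes were housed in different rooms, and an effect of the room cannot be told apart from one of sex. The samples are whole liver tissue, in which fewer cells of a type and less RNA per cell cannot be told apart.

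Many genes of the rodent liver differ between the sexes after puberty, and pituitary growth hormone is the best known source of this pattern. It reaches the male liver in separated pulses and the female liver more evenly, and it acts through its receptor, the kinase JAK2 and the transcription factor STAT5. The repressor BCL6, abundant in male liver, and the factor CUX2, made in female liver, act on many of the same genes. The 8 genes described here do unrelated work: a drug-metabolizing methyltransferase, a retinol dehydrogenase-like enzyme, a scavenger receptor, a calcineurin inhibitor, a kinase, a phosphatase scaffold, a synaptic membrane protein and a phospholipid-binding protein.

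Depth followed the sequencing pool, with 33107889 to 36673533 counts in the 8 libraries of pool 1, 27370921 to 31280663 in the 5 of pool 2 and 38928480 to 46835745 in the 7 of pool 3, and every group had livers in all 3 pools. The sex labels held in all 20 livers: Xist, the RNA of the inactive X chromosome, was at 412 to 757 CPM, counts scaled to a common library size, in females and at most at 0.329 CPM in males, and the Y-linked Ddx3y was at 74.8 to 110.1 CPM in males and at most at 0.0330 CPM in females. Hepatocyte markers were abundant throughout, with Alb, Ttr, Apoa1, Cps1 and Serpina1a summing to between 74772 and 153991 CPM in every liver. Lymphocyte markers summed to at most 4.27 CPM and cholangiocyte markers to at most 8.48 CPM. Of the erythroid markers, the globin genes Hba-a1, Hba-a2 and Hbb-b1 are listed at 0 in all 20 livers, and Alas2, which makes the first intermediate of heme in red cell precursors, was at 16.4 to 33.3 CPM in females and at 149 to 216 CPM in males.

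The genes were taken as single-copy genes, and for 6 of them no close copy was found in the genome sequence. The coding sequences of Colec12, Rcan2, Aatk, Ppp1r9a, Clstn3 and Anxa5 had no match elsewhere in the mm9 genome. The search was for closely similar stretches and can miss more distant relatives. Tpmt had 1 match, of 723 bases at 90.7% identity at chr6:65278216-65278936, where no gene is annotated. BC089597, which RefSeq names Rdh16f2, is no single-copy gene: its coding sequence had 19 matches of at least 90% identity over at least 125 bases, lying at Hsd17b6, Rdh1, Rdh16, Rdh18-ps, Rdh19, Rdh7 and Rdh9 on chromosome 10. Read pairs that fit several places were not counted, so the counts of BC089597, and to a lesser extent of Tpmt, are uncertain by the pairs lost in this way.

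Measured as TPM, counts scaled by gene length and library size, the members spanned the range from scarce to abundant. Their means over the 20 livers were ranked among all gene loci with any count, a wider set than the genes tested. BC089597 had the highest mean, above 96.2% of these loci, and Anxa5, Tpmt and Colec12 stood above 93.9%, 89.998% and 89.5%. Clstn3, Rcan2, Aatk and Ppp1r9a were near the middle of this wider set, above 53.5%, 51.6%, 43.1% and 40.8% of its loci.

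The interaction is the female-minus-male difference in C3 less the same difference in B6, in log2 units. It was positive for all 8 genes and ran from 0.63 ± 0.07 (SE) for Anxa5 to 3.01 ± 0.30 for Clstn3. Across the genome 0.401% of genes were called for this interaction, 0.270% in the positive direction, and the 8 genes are all among them because they were chosen from them. Ordered by the p-value of the interaction, they held places between 1, BC089597, and 13, Anxa5, which describes the choice and is no support for it. The same sign went with differing patterns: in Aatk, Ppp1r9a and Clstn3 only the B6 males stood apart, in BC089597 and Rcan2 the females were high and the C3 males lowest, in Tpmt the B6 females were low, in Colec12 the direction of the sex difference turned between strains, and in Anxa5 the females were higher in C3 and overlapped with the males in B6.

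**Figure D1:**
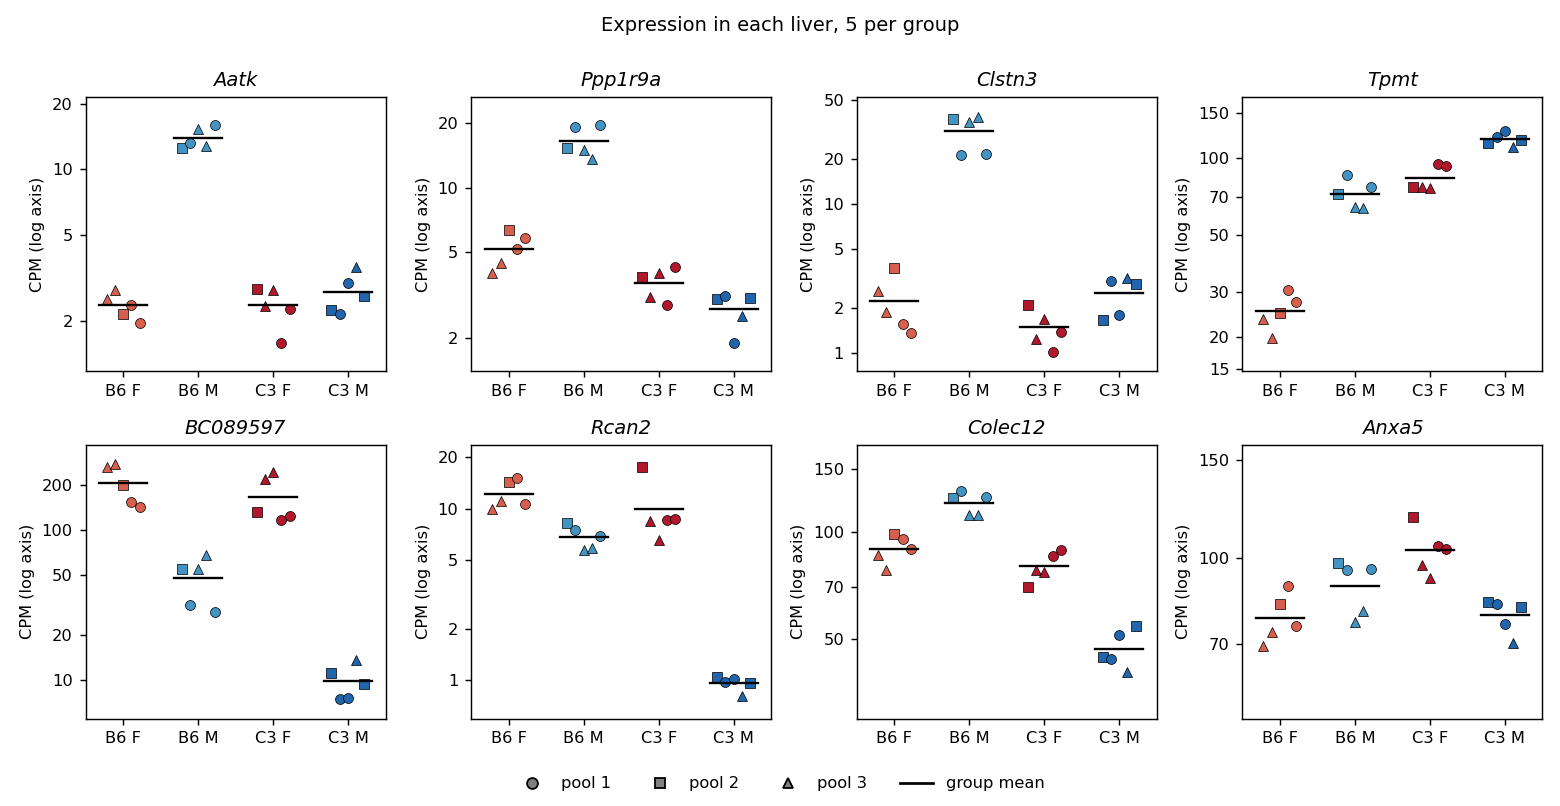
Expression of the 8 genes in CPM (log axis) in each liver of the 4 groups, with symbols for the sequencing pool and a line at the group mean. Aatk, Ppp1r9a and Clstn3 are highest in all 5 B6 males, Rcan2 and BC089597 are lowest in all 5 C3 males, and Tpmt is lowest in all 5 B6 females.

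Aatk, Ppp1r9a and Clstn3 were high in B6 males and low in the other 3 groups. All of them are best known from neurons: Aatk encodes an apoptosis-associated membrane kinase of the lemur kinase family, Ppp1r9a the scaffold neurabin, which ties protein phosphatase 1 to actin, and Clstn3 the synaptic adhesion protein calsyntenin-3. The genes lie on chromosomes 11, 6 and 6, in mm9 at chr11:119868632-119908459 on the minus strand, chr6:4853320-5115661 on the plus strand and chr6:124380774-124414802 on the minus strand.

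Since these 3 genes moved together, the 250 bases before their start sites are shown, from the RefSeq promoter table (GRCm38.p6), all of which match mm9 without a difference. In mm9 they are chr11:119908460-119908709 (minus strand), chr6:4853061-4853310 (plus strand) and chr6:124414803-124415052 (minus strand). Each reads 5′ to 3′ on the strand of its gene, and capitals mark the motif ATTGAT, the core bound by HNF6 and CUX2, which was found before Clstn3 and reads ATCAAT on the strand shown.
Aatk: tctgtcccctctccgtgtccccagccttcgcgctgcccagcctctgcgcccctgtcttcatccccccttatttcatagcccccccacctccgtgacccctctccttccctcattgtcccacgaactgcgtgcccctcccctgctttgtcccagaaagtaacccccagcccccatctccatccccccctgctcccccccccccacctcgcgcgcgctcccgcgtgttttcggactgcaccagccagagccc
Ppp1r9a: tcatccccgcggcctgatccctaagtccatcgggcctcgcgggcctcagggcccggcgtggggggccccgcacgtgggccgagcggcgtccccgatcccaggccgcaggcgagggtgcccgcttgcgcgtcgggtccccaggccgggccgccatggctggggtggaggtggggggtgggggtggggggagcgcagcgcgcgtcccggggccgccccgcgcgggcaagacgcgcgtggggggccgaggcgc
Clstn3: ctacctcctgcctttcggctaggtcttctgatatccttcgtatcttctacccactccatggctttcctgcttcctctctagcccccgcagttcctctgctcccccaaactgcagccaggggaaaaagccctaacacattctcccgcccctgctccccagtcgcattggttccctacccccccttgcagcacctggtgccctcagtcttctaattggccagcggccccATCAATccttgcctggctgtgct

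The 3 stretches differed in make-up. They held 14, 35 and 6 CpG dinucleotides, and the 300-base windows from which they come had 70.3%, 82.0% and 58.3% G and C, against a median of 52.7% over all promoter windows. Among the 7 members matched, 6 were above this median at their start, and BC089597 was below it at 47.7%. Within 250 bases before and 50 after a start, 3 motifs were searched on both strands: TTCNNNGAA (the STAT and BCL6 type), ATTGAT and AGAACA (a short steroid receptor element). They occurred in 8.30%, 7.54% and 19.0% of the 32851 windows of all genes. Of the 14 windows of the 7 matched members, alternative starts included, 1 held TTCNNNGAA, at an alternative start of Aatk. ATTGAT was in 2, before Clstn3 with its first base at position -23 and at an alternative start of Rcan2. AGAACA was in none. Colec12 was not matched.

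Aatk in B6 males was at 12.5, 13.2, 15.4, 12.8 and 15.9 CPM, a mean of 14.0 ± 1.56 (SD, n = 5). B6 females had 2.54, 2.79, 2.16, 2.39 and 1.96 CPM, C3 females 2.81, 2.35, 2.80, 1.59 and 2.28 CPM, and C3 males 2.24, 2.16, 2.996, 3.56 and 2.61 CPM. Every B6 male was above every other liver, and the other 3 groups overlapped. In the fit, females minus males was -2.57 ± 0.14 (log2, SE) in B6 and -0.25 ± 0.15 in C3, and C3 minus B6 was -0.00 ± 0.15 in females and -2.32 ± 0.14 in males. The mean of B6 males was 5.15 times that of C3 males, the group next in order.

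Ppp1r9a in B6 males was at 15.4, 19.2, 15.0, 13.6 and 19.5 CPM, a mean of 16.5 ± 2.64. B6 females followed with 3.99, 4.44, 6.37, 5.18 and 5.83 CPM, then C3 females with 3.83, 3.08, 3.99, 2.85 and 4.26 CPM and C3 males with 3.02, 3.14, 1.89, 2.52 and 3.07 CPM. The B6 males were again apart, and each of the lower groups overlapped with the next in order. The fitted sex difference was -1.69 ± 0.13 in B6 and 0.47 ± 0.15 in C3, so the estimate was male-high in B6 and female-high in C3, although the C3 livers overlapped.

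Clstn3 had the largest interaction of the 8 genes. B6 males had 37.2, 21.1, 35.2, 38.5 and 21.7 CPM, with the 2 livers of pool 1 at the lower values and those of pools 2 and 3 above 35. B6 females had 2.62, 1.89, 3.71, 1.57 and 1.36 CPM, C3 females 2.12, 1.24, 1.68, 1.02 and 1.38 CPM, and C3 males 1.66, 3.02, 1.798, 3.21 and 2.89 CPM. These 3 groups overlapped, at counts between 34 and 135 per liver. The mean of B6 males, 30.8 ± 8.61 CPM, was 12.2 times that of C3 males, and females minus males was -3.80 ± 0.20 in B6 and -0.80 ± 0.23 in C3, the latter -0.30 on log2(TPM + 1).

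Tpmt encodes thiopurine S-methyltransferase, which inactivates the thiopurine drugs, and lies at chr13:47118912-47138586 on the minus strand. It was lowest in B6 females, at 23.4, 19.9, 24.9, 30.4 and 27.4 CPM. B6 males had 72.0, 85.5, 64.1, 63.4 and 77.1 CPM, C3 females 76.6, 77.1, 76.2, 94.3 and 92.5 CPM, and C3 males 114.5, 120.5, 127.6, 109.7 and 117.5 CPM. Tpmt was thus male-high in both strains without overlap, females minus males being -1.53 ± 0.06 (log2, SE) in B6 and -0.48 ± 0.06 in C3. It was also the only member higher in C3 than in B6 in both sexes without overlap, by 1.73 ± 0.06 in females and 0.69 ± 0.06 in males. B6 males and C3 females, neighbours in the order with means of 72.4 ± 9.28 and 83.3 ± 9.22 CPM, overlapped.

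BC089597 and Rcan2 were female-high in both strains, and far more so in C3, where the males were lowest. BC089597 lies at chr10:127303532-127314375 on the plus strand within a row of retinol dehydrogenase genes, enzymes of the short-chain family that act on retinol and steroids. Rcan2 encodes a regulator that inhibits calcineurin, the calcium-dependent phosphatase, and lies at chr17:43938800-44176465 on the plus strand. The 250 bases before their start sites, from the same table and again equal in mm9, are chr10:127303282-127303531 and chr17:43938550-43938799. They are shown as a pair with the same order of groups and unlike sequence, with 1 CpG in the former and 16 in the latter, and neither held any of the 3 motifs.
BC089597: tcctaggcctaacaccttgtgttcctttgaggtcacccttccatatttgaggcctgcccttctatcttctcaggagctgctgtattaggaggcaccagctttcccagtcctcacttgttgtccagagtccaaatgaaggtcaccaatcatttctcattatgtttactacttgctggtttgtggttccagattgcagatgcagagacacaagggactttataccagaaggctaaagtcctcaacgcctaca
Rcan2: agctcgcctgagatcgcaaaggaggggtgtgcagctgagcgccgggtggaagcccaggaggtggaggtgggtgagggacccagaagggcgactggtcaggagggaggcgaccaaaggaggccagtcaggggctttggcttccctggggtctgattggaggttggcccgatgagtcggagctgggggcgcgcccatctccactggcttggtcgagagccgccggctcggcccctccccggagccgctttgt

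BC089597 was at 263, 276, 201, 155 and 143 CPM in B6 females and at 132, 219.6, 246, 117 and 124 CPM in C3 females. B6 males had 54.9, 31.9, 55.3, 68.5 and 28.6 CPM. C3 males had 11.1, 7.49, 7.61, 13.6 and 9.49 CPM. The females of the 2 strains overlapped, while C3 males lay below B6 males and B6 males below all females. Females minus males was 2.14 ± 0.09 in B6 and 3.97 ± 0.10 in C3, a 4.39-fold and a 15.7-fold difference, and C3 minus B6 in males was -2.16 ± 0.10.

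Within each group BC089597 was highest in livers of pool 3. Pool 3 exceeded pool 1 by 0.93 ± 0.07 (edgeR quasi-likelihood test, Benjamini-Hochberg adjusted p = 3.2e-09, a comparison chosen after the data were seen), when 20.0% of all genes were called between these pools and 11.2% of all genes higher in pool 3. It was the only member called there. The interaction of BC089597 was 1.69, 1.81 and 1.98 within pools 1, 2 and 3, taken as log2 ratios of mean CPM.

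Rcan2 was at 10.01, 11.1, 14.4, 15.1 and 10.6 CPM in B6 females and at 17.5, 8.49, 6.56, 8.62 and 8.74 CPM in C3 females. B6 males had 8.30, 7.47, 5.76, 5.92 and 6.93 CPM. C3 males had 1.04, 0.979, 1.02, 0.808 and 0.964 CPM, from 27 to 34 counts each. The C3 males were apart from all other livers and close to each other, at 0.963 ± 0.0924 CPM, whereas C3 females overlapped with both B6 groups. The liver at 17.5 CPM, C3 female replicate 1, stood above the other 4 C3 females, at 6.56 to 8.74 CPM, which were all below the B6 females. C3 minus B6 in females was -0.35 with that liver and -0.53 ± 0.10 without it. Females minus males was 0.84 ± 0.13 in B6 and 3.44 ± 0.16 in C3, and 3.21 ± 0.12 in C3 without that liver. The mean of B6 males was 7.14 times that of C3 males.

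**Figure D2:**
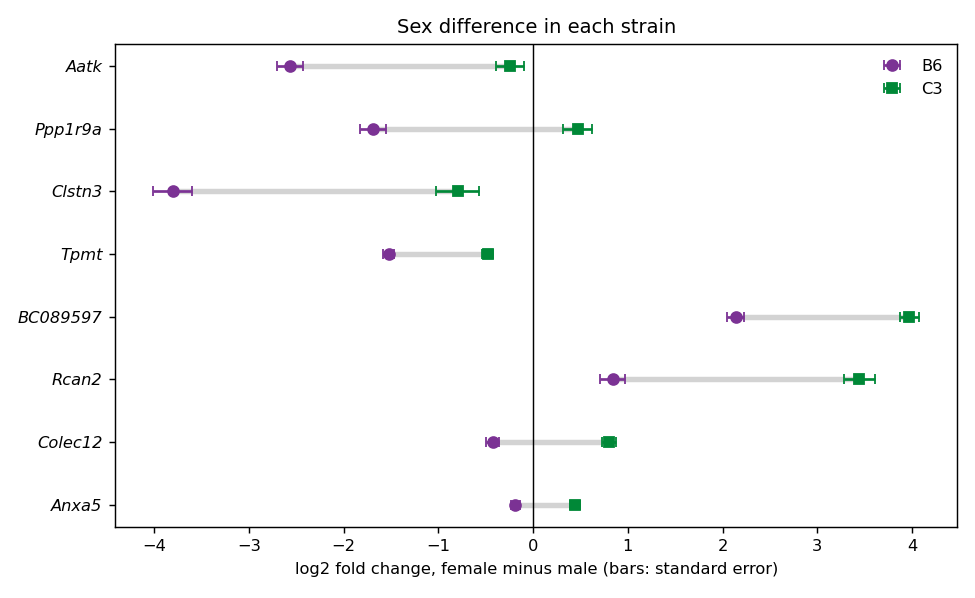
Female-minus-male log2 fold change of each gene in B6 and in C3, with standard errors. The C3 value lies to the right of the B6 value for all 8 genes, and it is on the other side of 0 for Ppp1r9a, Colec12 and Anxa5.

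In Colec12 and Anxa5 the changes were smaller. The estimate of the sex difference had unlike signs in the strains, with the livers of both strains apart for Colec12 and only those of C3 apart for Anxa5. Colec12 encodes a membrane collectin that works as a scavenger receptor of vascular and phagocytic cells, and lies at chr18:9707646-9877993 on the plus strand. Anxa5 encodes annexin A5, which binds phosphatidylserine in the presence of calcium, and lies at chr3:36347846-36374809 on the minus strand.

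Colec12 was highest in B6 males, at 124, 129.9, 111, 112 and 125 CPM. B6 females had 86.4, 78.4, 98.5, 95.5 and 89.3 CPM, C3 females 70.0, 78.3, 77.0, 85.9 and 89.2 CPM, and C3 males 44.6, 44.0, 51.5, 40.6 and 54.4 CPM. Only the females of the 2 strains overlapped. The sex difference was -0.43 ± 0.07 (log2, female minus male, SE) in B6 and 0.80 ± 0.07 in C3, both without overlap of the livers.

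Anxa5 was highest in C3 females, at 118, 97.0, 92.1, 105 and 104 CPM. B6 females had 69.4, 73.6, 82.7, 88.9 and 75.4 CPM, B6 males 97.9, 95.0, 76.8, 80.4 and 95.3 CPM, and C3 males 83.4, 82.8, 76.0, 70.3 and 81.7 CPM. C3 females were above C3 males and above B6 females without overlap, and overlapped with B6 males. Females minus males was -0.19 ± 0.05 in B6, where the sexes overlapped, and 0.44 ± 0.05 in C3. The B6 value was smaller on log2(TPM + 1), at -0.07.

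Markers of non-parenchymal cells were summed in each liver. The 6 Kupffer cell markers summed to 418 to 569 CPM in the females and 256 to 429 CPM in the males of B6, and to 275 to 428 CPM in the females and 181 to 269 CPM in the males of C3. The 6 stellate cell markers summed to 599.6 to 687 CPM, 452 to 492, 473 to 504 and 363 to 418 in the same order, and the 5 endothelial markers to 361 to 427, 281 to 321, 328 to 383 and 276 to 334. These sums are scaled by total counts, without the TMM scaling applied to Colec12. C3 males, lowest for Colec12, had the lowest median for the Kupffer and stellate cell sums. Their endothelial median, 307 CPM, was near the 312 CPM of B6 males, and the order of these groups was not settled. B6 males, highest for Colec12, were below B6 females in the medians of all 3 sums. Of the 32 markers of 7 cell types that were tested, 3 were called for the mean sex difference (9.62% of all genes), 7 for the mean strain difference (12.6%) and none for the interaction (0.401%) by edgeR, where 6 had an unadjusted p under 0.05, nor by DESeq2. The part of cell composition in the levels of Colec12 and Anxa5 was not tested.

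Over the 8 genes, the counts without overlap can be read beside those of all genes. Females and males of B6 were apart for 7 of 8, where 10.9% of all genes were apart, with 2 female-high (5.79% of all genes) and 5 male-high (5.10%). In C3 they were apart for 5 of 8, against 13.1% of all genes, with 4 female-high (7.38%) and 1 male-high (5.68%). C3 and B6 females were apart for 2 of 8, against 12.8%: Tpmt and Anxa5 were higher in C3 (6.34% of all genes) and none was lower (6.47%), but without C3 female replicate 1 Rcan2 was lower too. C3 and B6 males were apart for 7 of 8, against 15.1%, with 6 lower in C3 (8.40%) and Tpmt higher (6.74%). These comparisons share livers and belong to the contrast that chose the genes, so the counts are a description.

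**Figure D3:**
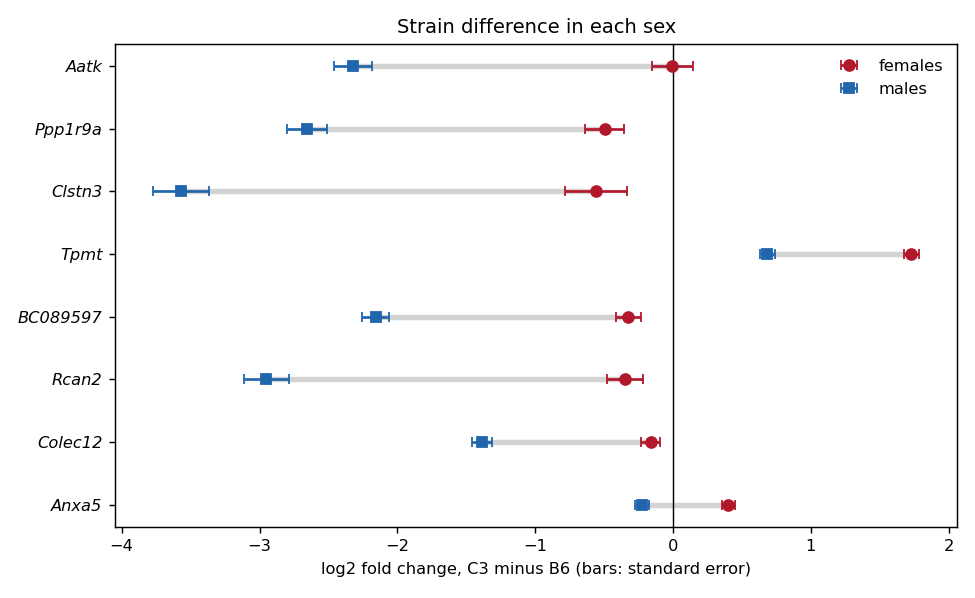
C3-minus-B6 log2 fold change of each gene in females and in males, with standard errors. Female values lie between -0.56 and 0.40 for the 7 genes other than Tpmt, which is at 1.73, while male values reach -3.57 for Clstn3.

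The sex difference averaged over both strains, and the strain difference averaged over both sexes, are different contrasts from the one that chose the genes, and these were tested. They are made of the same group means, however, and where a single group stands apart they are large together with the interaction. In Aatk the interaction was 2.32, the mean sex difference -1.41 and the mean strain difference -1.16. The numbers of members called are therefore not independent of the choice, and are a description. A gene was called at an adjusted p under 0.001 with a log2 fold change over 0.5 in either direction. For the mean sex difference 9.62% of all genes were called, and 6 of 8 members were: 2 higher in females (6.03% of all genes) and 4 lower (3.59%). BC089597 was higher by 3.05 ± 0.07 (log2, SE; adjusted p = 8.9e-17) and Rcan2 by 2.14 ± 0.10 (1.3e-11). Clstn3 was lower at -2.30 ± 0.15 (7.5e-10), Aatk at -1.41 ± 0.10 (2.9e-09), Tpmt at -1.003 ± 0.04 (4.3e-13) and Ppp1r9a at -0.61 ± 0.10 (7.5e-05). On log2(TPM + 1), where limma gave -0.40, and log2(TPM + 0.1), where it gave -0.49, Ppp1r9a was under the fold threshold. Colec12, at 0.19 ± 0.05 (0.0041), and Anxa5, at 0.13 ± 0.03 (0.0049), were not called. Averages of this kind stand for unequal parts, as in Clstn3, where -3.80 in B6 and -0.80 in C3 gave -2.30.

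For the mean strain difference 12.6% of all genes were called, and 7 of 8 members were: Tpmt higher in C3 (5.28% of all genes) and 6 lower (7.31%). Read pairs of both strains were aligned to mm9, and whether sequence differences of the strains changed the counts was not tested. Tpmt was at 1.21 ± 0.04 (adjusted p = 1.2e-14). Clstn3 was at -2.06 ± 0.15 (1.7e-09), Rcan2 at -1.65 ± 0.11 (2.6e-10), Ppp1r9a at -1.58 ± 0.10 (2.6e-10), BC089597 at -1.24 ± 0.07 (1.5e-11), Aatk at -1.16 ± 0.10 (2.0e-08) and Colec12 at -0.77 ± 0.05 (2.5e-10). Anxa5, at 0.09 ± 0.03 (0.041), was not called. The medians of all genes tested were 0.01 for sex and 0.02 for strain. Within pools 1, 2 and 3, as log2 ratios of mean CPM over 1 or 2 livers a group, the mean sex difference was -2.44, -1.72 and -2.58 for Clstn3 and -0.66, -0.47 and -0.64 for Ppp1r9a.

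**Figure D4:**
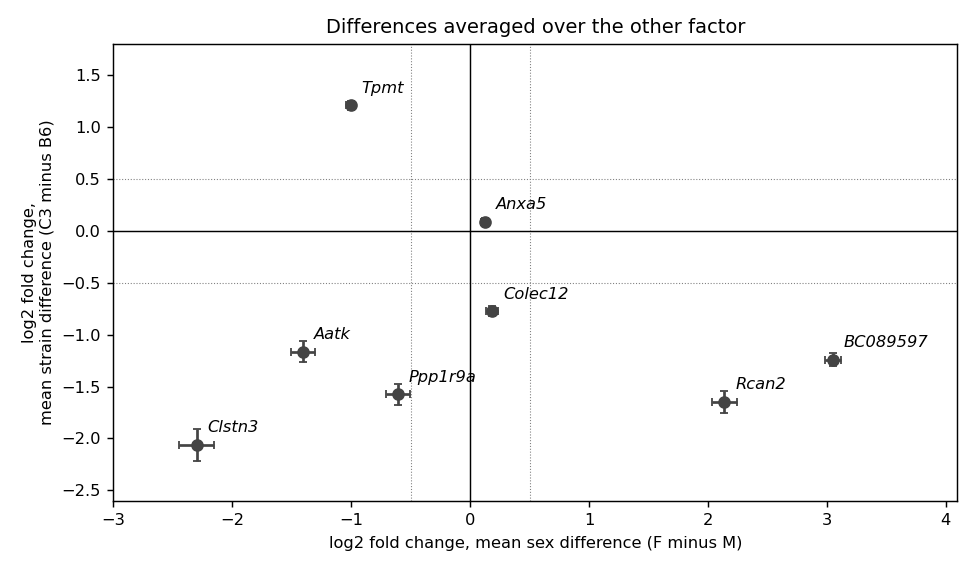
Mean strain difference (C3 minus B6, log2) against mean sex difference (female minus male, log2) of the 8 genes, with standard errors and dotted lines at the 0.5 threshold. Tpmt lies alone at upper left, Clstn3, Aatk and Ppp1r9a at lower left, and BC089597 and Rcan2 at lower right.

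The genes next to the members on their chromosomes were looked up as well. Of the 16 nearest tested genes, 1 on each side of each member, none was called for the interaction by the edgeR quasi-likelihood test, where 3 had an unadjusted p under 0.05, nor by DESeq2, when 0.401% of all genes were, so that no call among so few is near the background. Those called in the mean differences are named after their values were seen. For the mean sex difference 1 was called by edgeR, against 9.62% of all genes, Cyp39a1 beside Rcan2, an oxysterol hydroxylase, at 1.81 (adjusted p = 2.3e-09). DESeq2 called Nhlrc1 beside Tpmt as well. For the mean strain difference 3 were called, against 12.6% of all genes: Nhlrc1 beside Tpmt at 0.85 (1.2e-04), Rdh18-ps beside BC089597 at 2.18 (1.7e-08) and Pon1 beside Ppp1r9a at -0.54 (4.8e-10). The strain call of Nhlrc1 was lost without the pool term, at 0.79 (0.010), and on log2(TPM + 1), at 0.44. Aatk overlaps the microRNA genes Mir338 on its own strand and Mir3065 on the other, and Anxa5 overlaps Mir7009 on its own strand.

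The relatives of BC089597 on chromosome 10, looked up after its values were seen, had smaller female-minus-male estimates. Of 7 genes that share its sequence 6 were tested, and 4 were called higher in females: Rdh1 at 1.47 ± 0.20 (adjusted p = 8.9e-06), Rdh9 at 0.89 ± 0.11 (3.6e-06), Hsd17b6 at 0.75 ± 0.10 (6.8e-06) and Rdh16 at 0.53 ± 0.10 (1.9e-04). The call of Rdh16 was lost, at 0.47 to 0.50, without B6 male replicate 3 or 5, C3 female 5 or C3 male 5. Without the pool term the calls of Rdh9 (adjusted p = 0.0033) and Rdh16 (0.0087) were lost, and on log2(TPM + 1) that of Rdh1, at 0.42. Rdh7, the most abundant with 779 to 896 CPM in the group means, was at 0.02 ± 0.04 (0.63). None of the 6 was called for the interaction by edgeR, where 3 had an unadjusted p under 0.05, nor by DESeq2, and the values went both ways, from -0.80 ± 0.20 for Hsd17b6 (0.033) to 0.79 ± 0.40 for Rdh1 (0.35). For strain, Rdh18-ps at 2.18 (1.7e-08) and Hsd17b6 at 1.27 (4.4e-09) were called higher in C3 and Rdh9 lower at -0.52 (7.5e-04), a call that did not hold in 16 of the 20 fits with 1 liver left out (-0.54 to -0.47). Pairs that fit several of these genes were not counted, so each value rests on the pairs that fit 1 gene.

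**Figure D5:**
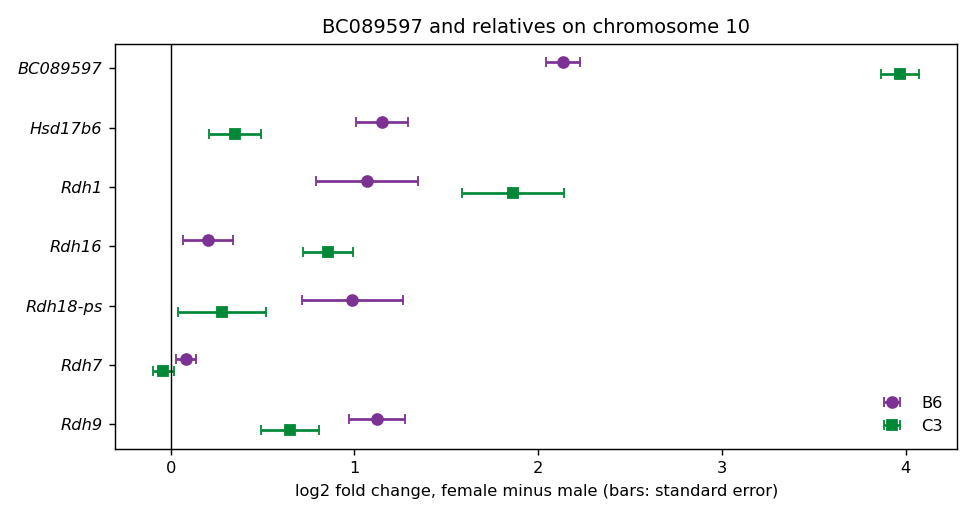
Female-minus-male log2 fold change in B6 and in C3, with standard errors, of BC089597 and the 6 tested relatives on chromosome 10. BC089597 has the largest value in each strain, 2.14 and 3.97, and the strains are not in the same order across the relatives.

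For each member the 2 genes with the most similar pattern were those with the smallest root mean square difference of log2 CPM over the 20 livers, each gene centred on its mean. Rcan2 and BC089597 shared one, Tox, a DNA-binding protein of lymphocyte development, at 0.39 and 0.72 log2 units. The others of BC089597 and Rcan2 were Cyp4a31 (0.53), a cytochrome P450 of fatty acid hydroxylation, and Rasl11b (0.66). Aatk was nearest to Cav1 (0.43), the coat protein of caveolae, and to Ppp1r9a itself (0.54). Ppp1r9a was nearest to Grk5 (0.40), a receptor kinase, and Lgals1 (0.41), a galectin. Clstn3 was nearest to Nat8f6 (0.56) and Olig1 (0.63), Tpmt to Fam131c (0.29) and Pdilt (0.34), Colec12 to Tgfbr2 (0.27) and Smim1 (0.27), and Anxa5 to Kif21a (0.13) and Kif16b (0.13). A near gene need not share the strain-dependent sex difference. Females minus males in Pdilt, for example, was -1.07 in B6 and -0.95 in C3. On log2(TPM + 1), Tox for Rcan2, Cav1 for Aatk, Olig1 for Clstn3 and Pdilt for Tpmt were again among the nearest 2, and the other 12 were not. The members themselves varied over the livers by an SD of 0.20 for Anxa5 to 1.79 for BC089597, and the smallest distances, of Anxa5 and Colec12, belong to the 2 members that varied least.

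Of the pathway partners and relatives of the members, 84 genes in 10 lists, 80 were tested. For the mean sex difference 6 were called higher and 8 lower, 17.5% against 9.62% of all genes. For the mean strain difference 4 were called higher and 9 lower, 16.2% against 12.6%. For the interaction 1 was called by the edgeR quasi-likelihood test, against 0.401% of all genes, while 22 of the 80 had an unadjusted p under 0.05. The called gene was Cd36, the fatty acid translocase and scavenger receptor, with an interaction of 2.14 ± 0.30 (adjusted p = 4.3e-04). Its group means were 135 CPM (females) and 144 CPM (males) in B6, and 95.1 CPM (females) and 23.1 CPM (males) in C3, so that C3 males were lowest, as for Colec12. The call was lost, at 2.04 to 2.17 and an adjusted p of at most 0.0018, when B6 female replicate 1 or 2, B6 male 1 or 2, C3 female 3 or 4, or C3 male 1 or 4 was left out. By DESeq2, 2 of the 80 were called for the interaction, Cd36 and the annexin Anxa2, when 182 of all genes were. In edgeR the interaction of Anxa2 was 0.91 ± 0.18 (adjusted p = 0.0059), with females minus males at -0.48 in B6 and 0.44 in C3.

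Among the partners of Tpmt, a list of 10 small-molecule methyltransferases, Hnmt, which methylates histamine, was lower in females at -0.58 (adjusted p = 1.4e-05), and under the fold threshold on log2(TPM + 1) and log2(TPM + 0.1), at -0.45 and -0.47. For strain 2 of them were lower in C3, As3mt at -1.27 (1.3e-09), which methylates arsenic, and Nnmt at -4.95 (9.8e-14), which methylates nicotinamide, whereas Tpmt was higher there. The median of the list was -0.18 for sex and -0.16 for strain. Of 10 genes of purine and thiopurine metabolism, 3 were lower in females, the aldehyde oxidases Aox3 at -1.801 (4.8e-11) and Aox1 at -1.17 (8.3e-13) and the purine salvage enzyme Hprt at -0.65 (1.4e-11). For strain, Aox1 at -0.89 (1.8e-11) and xanthine dehydrogenase Xdh at -0.91 (2.8e-11) were lower in C3 and the nucleotidase Nt5c2 at 0.68 (1.5e-08) was higher. Medians were -0.25 and -0.14.

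The calcineurin list, 7 tested, had 2 calls for sex, both in relatives of Rcan2 that bind calcineurin: Rcan3 was higher in females at 0.76 (adjusted p = 2.5e-05) and Rcan1 lower at -0.92 (2.1e-05). On log2(TPM + 1) Rcan3 was at 0.37, under the fold threshold. The list's median was -0.01 for sex and 0.10 for strain, with no call for strain by edgeR or DESeq2 (5 at an unadjusted p under 0.05). Of 10 annexins tested, none was called for sex by either tool (5 at an unadjusted p under 0.05) and 2 were lower in C3, Anxa3 at -0.97 (1.0e-06) and Anxa2 at -0.65 (6.2e-06), with medians of 0.02 and -0.09. Of the 2 calsyntenins, the 1 tested kinase of the Aatk family and the 4 protein phosphatase 1 partners of neurabin, none was called in either comparison by either tool. At an unadjusted p under 0.05 they numbered 2, 0 and 4 for sex and 1, 1 and 3 for strain. In the imprinted cluster around Ppp1r9a, 8 were tested, none was called for sex by either tool (5 at an unadjusted p under 0.05), and Asb4 was higher in C3 at 0.79 (8.8e-05) and Pon1 lower. On log2(TPM + 1) Asb4 was at 0.19 and not called.

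Of 15 collectins and scavenger receptors, relatives of Colec12, 3 were called for sex: Mbl2, a mannose-binding lectin, higher in females at 0.99 (adjusted p = 6.2e-11), Cd36 higher at 0.97 (4.5e-05) and the ferritin receptor Scara5 lower at -5.00 (9.8e-09). The size of the Scara5 difference is uncertain. Its mean in B6 females, 0.0955 CPM, was near the floor of about 3 counts, and the estimate ran from -5.18 to -1.83 over the other settings. For strain, Scara5 at 2.17 (5.4e-04) and the lipoprotein receptor Scarb1 at 0.53 (1.9e-08) were higher in C3, and Cd36 at -1.56 (1.0e-07) and the macrophage receptor Cd163 at -0.89 (4.5e-08) were lower. The strain call of Scara5 was lost in 8 of the 20 fits with 1 liver left out, at 1.74 to 2.15, and that of Scarb1 without C3 female replicate 4, at 0.50, with upper-quartile scaling, at 0.50, and on log2(TPM + 1) and log2(TPM + 0.1), at 0.46 on each. Medians were 0.33 for sex and -0.06 for strain.

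The 13 genes of growth hormone signalling and its sex-dependent regulators included 4 calls for sex. Cux2 at 5.93 ± 0.37 (adjusted p = 3.6e-10), the transcriptional cofactor Trim24 at 2.26 ± 0.15 (7.5e-10) and the estrogen receptor Esr1 at 1.20 ± 0.09 (4.2e-09) were higher in females, and Bcl6 at -2.08 ± 0.33 (5.3e-05) was lower. In the group means Cux2 was at 12.6 and 23.8 CPM in B6 and C3 females and at 0.258 and 0.289 CPM in B6 and C3 males, and Bcl6 at 10.5 and 14.1 CPM in females and 53.5 and 52.3 CPM in males. None of the 13 was called by edgeR or DESeq2 for the mean strain difference, where 3 had an unadjusted p under 0.05, or for the interaction, where 4 had. The SE of the interaction was as high as 1.32 among them, so that sizeable differences could go uncalled. Medians were 0.27 for sex, 0.25 for strain and -0.13 for the interaction.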

How the data were processed

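The authors made strand-specific libraries from ribosomal RNA-depleted total RNA, trimmed adapters with Cutadapt 1.9.1, aligned read pairs of 125 bases to mm9 with STAR 2.5.1b and assigned them to RefSeq genes by featureCounts of Subread 1.5.0-p1, leaving out pairs that fit several places or genes. They deposited these raw counts per gene, and TPM values made from them with a gene length of their own. Their tables of differential expression were not used. The headers for symbol and identifier are exchanged and were read by content.

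Counts were filtered by filterByExpr on the 4 groups, scaled by TMM and fitted with edgeR 4.0.16 (R 4.3.3) as group plus pool over all 20 livers. Two-sided quasi-likelihood p-values received the Benjamini-Hochberg adjustment over 13704 genes, and the SE is the log2 fold change over the square root of F. CPM use TMM-scaled library sizes, except those of Xist, Ddx3y and the cell type markers, which use total counts. A library shows a gene from about 3 counts, which covers counting error only.

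The members and lists were chosen with earlier results of these data known. Named were the members, the 2 most similar genes for each, the nearest tested genes on both sides, the called genes of the lists, and Xist and Ddx3y, except 1 result that is not reported here; the relatives of BC089597 were added after its values were seen, and so was the comparison of pools. In simulated data with 100 changed genes per size among 13704, a log2 change of 1 was called for 98 genes in the mean sex difference, 95 in the mean strain difference and 68 in the interaction, and a change of 2 for 100, 100 and 98, without a false call. The changed genes were drawn from those with a mean over 1 CPM. The simulated counts had the fitted spread and no pool effect, so these rates hold for such counts only. Pairs of livers of a group differed by more than counting error in all 40 pairs (chi-square per degree of freedom from 20.0 to 187). Coding sequences were aligned to mm9 with megablast of BLAST+ 2.17.0, which looks for closely similar stretches, and matches at or near the gene itself were left out. Of the 8 members 7 were matched to RefSeq promoters. Alternatives were DESeq2 1.42.0, limma 3.58.1 on log2(TPM + 1) and log2(TPM + 0.1), other scalings, no filter, no pool term, a replicate block, an adjusted p of 0.05, and each liver left out.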

Additional observations from a re-analysis of the deposited data

Results flagged for a closer look

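In C3 females, Rcan2 of replicate 1 stood apart, at 17.5 CPM against 6.56 to 8.74 CPM in the other 4 livers, by Dixon's test (gap over range 0.801, critical value 0.71). It was the only such case among the 32 groups of 5 livers, when chance gives about 1 in 20. Without this liver the interaction of Rcan2 was 2.37 and the mean sex difference 2.02 (log2).

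The sex difference was unlike between strains for the 8 genes, which were chosen for it, so these values carry no test: Tpmt 1.05, BC089597 1.83, Colec12 1.23, Rcan2 2.60, Aatk 2.32, Ppp1r9a 2.16, Clstn3 3.01 and Anxa5 0.63 (log2, C3 minus B6). Among the 80 list genes it was called for Cd36, at 2.14 (edgeR quasi-likelihood test, adjusted p = 4.3e-04), with females below males by 0.10 in B6 and above them by 2.04 in C3.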

How the results depend on the processing

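In 9 other settings and with each of the 20 livers left out, no called result changed sign. The difference of Aatk between C3 and B6 females, -0.00, took either sign. Genes called for the interaction numbered 55, and 182 with DESeq2, 20 without the pool term, 302 at an adjusted p under 0.05, and 32 to 55 with 1 liver left out (32 without B6 male replicate 1, 33 without C3 male replicate 4, 34 without C3 female replicate 1). Without the pool term 5 of the 8 members were called there, and Tpmt, BC089597 and Anxa5 were not. Since this contrast chose the members, these calls are a description and no test of them. Genes called for the mean sex difference rose from 1319 to 2137 at an adjusted p under 0.05, where 2 members, BC089597 and Clstn3 (0.54), differed between pools 3 and 1. Of the sex calls 62.7% were higher in females, and 74.2% with upper-quartile scaling, 71.2% on log2(TPM + 1) and 79.5% on log2(TPM + 0.1), where the median of all genes moved from 0.01 to 0.12. Ppp1r9a then fell under the fold threshold for sex, at -0.40 and -0.49 on the 2 TPM scales. On log2(TPM + 1), where the pseudocount is large for scarce genes, 9 differences of members were smaller by more than the spread of livers: females minus males in B6 for Aatk (-1.64), Ppp1r9a (-1.04) and Clstn3 (-2.89) and in C3 for Rcan2 (2.14) and Clstn3 (-0.30), and C3 minus B6 in males for Rcan2 (-1.72), Aatk (-1.61), Ppp1r9a (-1.56) and Clstn3 (-2.89). When the replicate number was added as a block, 1324, 1680 and 40 genes were called for sex, strain and interaction. Of these, 1238, 1628 and 36 were among those called without it. Members called for sex and strain stayed at 6 and 7. The numbers were not taken as pairs: deviations of same-numbered livers correlated between -0.46 and 0.63, over 0.1 in at most 3 of the 5 pairs of a comparison, and between -0.20 and 0.32 with the pool removed. For 37 calls of other named genes, 13 results in other settings and 37 with a liver left out missed the threshold. Other causes were not tested. Rcan2 in C3 males rests on 27 to 34 counts per liver.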
